A study of Homo sapiens with 10 samples.

Results

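The FOS and JUN genes encode the subunits of AP-1, a transcription factor that binds DNA as a pair of basic leucine zipper proteins. The genes were chosen by symbol: FOS, FOSB, FOSL1, FOSL2, JUN, JUNB and JUND, 7 of the 58735 genes in both deposited count tables. All 7 passed the filter on low counts in each comparison between OE and EV, where 14217 genes were tested over both sets. RNA came from an established line of human papillary thyroid carcinoma, TPC-1. The cells had received either a vector for overexpression of the long non-coding RNA PTCSC3-AS1 (OE, 5 libraries) or the empty vector (EV, 5 libraries). The second set is the table with replicates 5 and 4 of each group, and the first set is the table with replicates 1 to 3. In the second set the OE columns are headed OE and in the first EST_OE. The sources used here do not state the promoter of the vector, the time after transfection, whether cells were selected, what separates the sets, or whether replicates were separate cultures. The submitters describe 5 pairs without naming what a pair shares. The libraries were treated as unpaired in the main tests, except in that of replicate 5 against replicate 4. That test had the replicate number as a term, so its spread was that within numbers. The p-values measure the spread between libraries, which may be technical.

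Fos proteins do not pair with themselves and act with a Jun partner, whereas Jun proteins can also pair with each other. The pairs bind the TPA response element or the related cyclic AMP response element. FOS, FOSB, JUN and JUNB are known as immediate-early genes, whose RNA appears quickly after growth factor, serum or stress signals and is short-lived, while FOSL1 and FOSL2 RNA usually follows later and lasts longer. In many carcinoma lines with an active MAPK pathway, FOSL1 is the prevailing Fos member.

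On hg38, FOS lies on chromosome 14 from 75278774 to 75282230 (plus strand), FOSB on chromosome 19 from 45467995 to 45475179 (plus) and JUNB on chromosome 19 from 12791496 to 12793315 (plus). JUN lies on chromosome 1 from 58780788 to 58784327 (minus), JUND on chromosome 19 from 18279760 to 18281622 (minus), FOSL1 on chromosome 11 from 65892049 to 65900573 (minus) and FOSL2 on chromosome 2 from 28392448 to 28417312 (plus). JUNB shares 259 exonic bases, 14.2% of its exons, with HOOK2 on the opposite strand. The counting is not stated to use strand, so reads there cannot be told apart; HOOK2 itself had 70 to 130 counts per library. FOSB lies inside the span of ERCC1, with 0 exonic bases shared.

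The promoters of FOS, FOSB, JUN and JUNB, the 4 members whose RNA was lower in the second set than in the first, are shown from 250 bases before to 50 bases from the RefSeq start on (GRCh38.p14). They are at chr14:75278578-75278877 (plus), chr19:45467746-45468045 (plus), chr1:58783998-58784297 (minus) and chr19:12791236-12791535 (plus), in that order, 5′ to 3′ on the gene's strand. Capitals mark TGACGT, the core of a cyclic AMP response element, in FOS and FOSB, and TGACATCA, the variant response element known in the JUN promoter, in JUN.
FOS: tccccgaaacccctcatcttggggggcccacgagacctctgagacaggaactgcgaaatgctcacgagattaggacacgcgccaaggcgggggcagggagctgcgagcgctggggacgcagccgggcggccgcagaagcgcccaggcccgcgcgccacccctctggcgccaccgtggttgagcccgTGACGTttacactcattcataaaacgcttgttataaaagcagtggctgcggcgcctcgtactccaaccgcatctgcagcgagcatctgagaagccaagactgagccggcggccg
FOSB: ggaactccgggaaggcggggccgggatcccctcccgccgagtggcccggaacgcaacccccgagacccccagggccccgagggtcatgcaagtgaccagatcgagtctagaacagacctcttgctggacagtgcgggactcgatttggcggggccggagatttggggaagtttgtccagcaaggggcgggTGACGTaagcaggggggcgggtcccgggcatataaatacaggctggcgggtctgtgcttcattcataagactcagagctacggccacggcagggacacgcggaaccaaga
JUN: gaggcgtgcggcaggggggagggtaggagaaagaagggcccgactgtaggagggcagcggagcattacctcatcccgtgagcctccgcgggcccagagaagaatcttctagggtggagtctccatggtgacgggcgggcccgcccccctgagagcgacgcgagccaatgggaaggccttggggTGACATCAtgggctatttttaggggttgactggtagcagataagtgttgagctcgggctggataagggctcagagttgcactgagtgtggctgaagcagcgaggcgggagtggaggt
JUNB: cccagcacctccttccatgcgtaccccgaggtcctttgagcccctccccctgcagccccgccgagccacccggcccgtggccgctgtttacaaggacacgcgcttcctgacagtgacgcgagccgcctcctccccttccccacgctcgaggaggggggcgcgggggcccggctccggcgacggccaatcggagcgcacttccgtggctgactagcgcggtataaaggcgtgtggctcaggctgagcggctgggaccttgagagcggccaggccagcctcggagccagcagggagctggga

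TGACGT stood at -64 to -59 from the start in FOS and at -60 to -55 in FOSB, and TGACATCA at -67 to -60 in JUN. Of 35116 promoters of 300 bases in the same table, 7.98% held TGACGT and 2.61% held TGACATCA on either strand. JUNB held none of the 5 motifs searched, which also included TGAGTCA (4.95% of promoters), TGACGTCA (1.85%) and the CArG box bound by serum response factor (1.29%, no match in the 6 members matched, which do not include FOSL1). FOSL2 held TGACGT at -66 to -61 and TGAGTCA on the other strand at 5 to 11. JUND held TGACGTCA at -200 to -193, overlapped by 2 of its 3 TGACGT matches. These matches describe letters and were not tested as binding sites. Only these 300 bases of each promoter were searched, so a missing match, as for the CArG box in FOS, says nothing about sites farther from the start.

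Each library held 15761474 to 18066559 counts, with 20630 to 22029 genes detected. No row of the tables was named PTCSC3-AS1, so its level in OE cells was not measured here, and its neighbour PTCSC3 had 0 counts in every library. That allows at most 0.166 to 0.190 CPM (counts scaled to library size with TMM factors), a limit for counting error only. Of the 7 thyroid markers, PAX8 (360 to 479 CPM) and FOXE1 (13.9 to 30.7 CPM) were present. NKX2-1, TSHR and SLC5A5 had 0 counts, and TG was at most 1.37 CPM. KRT8 and KRT18 were present, while KRT19, EPCAM and CDH1 stayed under 0.389 CPM. The 6 leukocyte and 5 endothelial markers summed to at most 1.61 and 1.45 CPM. EV replicate 2 stood apart in the first set. For each degree of freedom, its counts had a chi-square of 38.2 against EV 1 and 45.2 against EV 3. EV 1 against EV 3 had 4.30. In the first set 1578 genes were called between OE and EV without EV replicate 2, against 5 with it. First-set tests of single genes are given both ways.

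FOSL1 was the most abundant member and FOS and FOSB were the least abundant in the second set. Levels between genes were compared as normalised counts, that is, CPM (as above) divided by the gene's length in kilobases. That length joins the exons of all annotated transcripts, 10 for FOS and 13 for FOSB against 1 each for JUN and JUNB. Which transcripts the cells made was not examined, so orders and shares between genes depend on the annotation. FOSL1 (Fra-1), a Fos protein without a strong activation domain of its own, stood at 306 and 258 in second-set OE and 319 and 250 in second-set EV (replicates 5 and 4), and at 283 to 306 in first-set OE and 284 to 299 in first-set EV. JUN, the Jun subunit with the strongest transactivation, followed at 109 and 82.8 in second-set OE, 101 and 68.2 in second-set EV, 128 to 146 in first-set OE and 119 to 126 in first-set EV. These levels put FOSL1 in the 99.2 to 99.5 percentile and JUN in the 95.8 to 98.3 percentile of the 14217 genes. In every library both ranked above the other members, and their ranges did not overlap within any group of a set.

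JUND, the Jun member known for steady expression in resting cells, and FOSL2 (Fra-2) came next. On the same per-length scale JUND stood at 44.8 and 40.4 in second-set OE, 42.4 and 41.5 in second-set EV, 50.4 to 58.3 in first-set OE and 40.2 to 55.5 in first-set EV. FOSL2 stood at 37.7 and 41.8 in second-set OE, 37.0 and 38.2 in second-set EV, 36.9 to 43.2 in first-set OE and 26.0 to 39.8 in first-set EV. The ranges of these neighbours overlapped in second-set OE and in no other group of a set.

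JUNB, a Jun protein that can restrain JUN at some promoters, stood at 19.5 and 16.7 in second-set OE, 16.3 and 16.0 in second-set EV, 26.0 to 31.7 in first-set OE and 22.1 to 24.9 in first-set EV on the per-length scale. FOS stood at 5.28 and 1.30 in second-set OE, 5.01 and 1.27 in second-set EV, 24.4 to 31.7 in first-set OE and 18.3 to 25.2 in first-set EV. FOSB stood at 4.30 and 4.06 in second-set OE, 3.62 and 2.98 in second-set EV, 9.68 to 11.3 in first-set OE and 7.29 to 9.02 in first-set EV. FOS overlapped with JUNB in both groups of the first set and with FOSB in both groups of the second set. FOS occupied the 24.1 to 51.9 percentile of genes in the second set and the 81.3 to 89.3 percentile in the first.

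**Figure D1:**
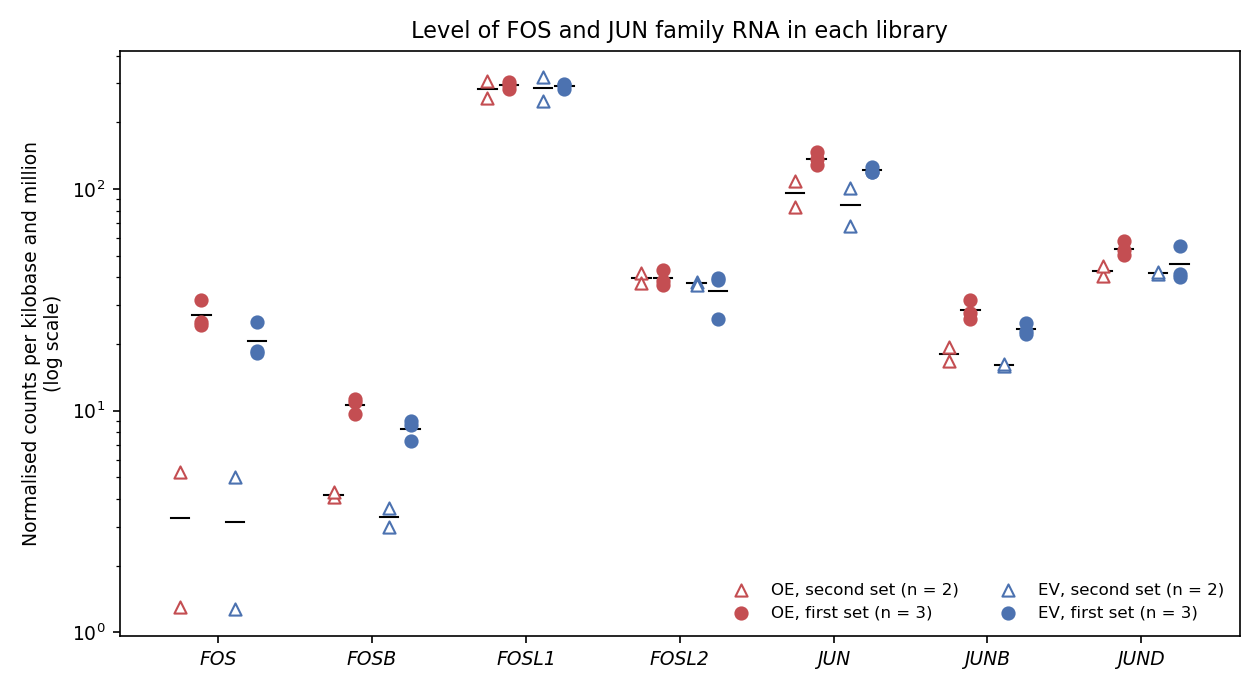
Level of each member in each library, as CPM per kilobase of gene on a log axis, with OE in red left of EV in blue, open triangles for the second set left of filled circles for the first, and black lines for group means. FOSL1 lay at 250 to 319 in all 10 libraries, while FOS lay at 1.27 to 5.28 in the second set and 18.3 to 31.7 in the first.

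FOSL1 made up 57.9% to 60.9% of the members' summed level in the second set and 48.8% to 54.1% in the first. FOS made up 0.29% to 1.0% in the second set and 3.30% to 5.58% in the first. JUN made up 16.3% to 20.7% in the second set and 21.9% to 24.2% in the first. The 4 Fos members together held 67.1% to 70.0% of the sum in the second set and 61.9% to 66.2% in the first. Fos-class RNA thus exceeded Jun-class RNA in all 10 libraries, whereas without FOSL1 the Jun members held the larger part in each. The summed level was 418 to 527 in the second set and 543 to 606 in the first. These shares describe RNA and not the make-up of protein pairs.

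**Figure D2:**
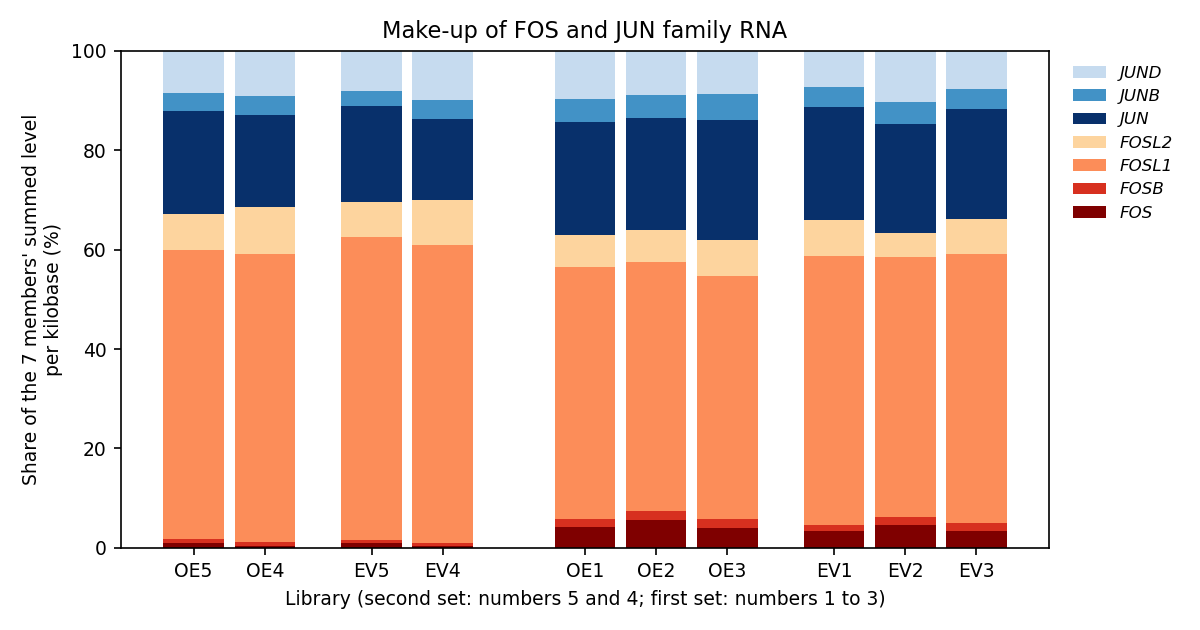
Share of each member (%) in the summed per-kilobase level of the 7 members, 1 bar per library, with Fos members in reds at the bottom and Jun members in blues at the top. FOSL1 fills 57.9% to 60.9% of the second-set bars and 48.8% to 54.1% of the first-set bars.

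The comparison of OE with EV asks whether the PTCSC3-AS1 vector changed AP-1 subunit RNA. Over both sets, all 7 members had fitted changes above 0, but none passed the test: 0 of 7 members and 0 of 14217 genes had an adjusted p under 0.05 (background 0%) by edgeR's quasi-likelihood test with Benjamini-Hochberg adjustment and the set as a term. At an unadjusted p under 0.05 there were 2 of 7 members and 812 genes (background 5.71%), and DESeq2 called 6 genes and no member. The members' median log2 change was 0.18, against -0.0028 over all genes tested, of which 49.2% lay above 0.

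FOSB, whose shorter splice form ΔFosB lacks part of the activation domain, had 23.9 and 22.6 CPM in second-set OE (replicates 5 and 4), against 20.1 and 16.6 CPM in second-set EV. In first-set OE it had 53.7, 60.5 and 62.7 CPM (replicates 1 to 3), against 40.5, 47.6 and 50.1 CPM in first-set EV. Every OE library lay above every EV library of its own set. The log2 change over both sets was 0.35 (SE 0.09, unadjusted p = 0.00116, adjusted p = 0.847 by edgeR's quasi-likelihood test). The log2 change was 0.34 (SE 0.15) in the second set and 0.35 (SE 0.11) in the first.

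JUNB had 35.4 and 30.4 CPM in second-set OE, against 29.6 and 29 CPM in second-set EV. In first-set OE it had 50.1, 47.2 and 57.8 CPM, against 40.2, 45.2 and 41.7 CPM in first-set EV. Here too the OE libraries lay above the EV libraries within each set, with OE replicate 2 and EV replicate 2 close together. The log2 change over both sets was 0.24 (SE 0.08, unadjusted p = 0.0106, adjusted p = 0.847 by edgeR's quasi-likelihood test). FOSB and JUNB were the 2 members whose OE libraries lay above the EV libraries in each set (background 1.22% of 14217 genes).

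JUN had 386 and 293 CPM in second-set OE, against 357 and 241 CPM in second-set EV. In first-set OE it had 485, 454 and 519 CPM, against 447, 421 and 425 CPM in first-set EV. The groups did not overlap in the first set and did in the second, where replicate 4 was low in both groups. The log2 change over both sets was 0.18 (SE 0.10, adjusted p = 0.858 by edgeR's quasi-likelihood test).

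FOS, the founding Fos member and a classic serum-response gene, had 17.1 and 4.21 CPM in second-set OE, against 16.2 and 4.12 CPM in second-set EV. In first-set OE it had 81.8, 103 and 78.9 CPM, against 59.1, 81.5 and 60.3 CPM in first-set EV. In the first set EV replicate 2 lay above OE replicate 3 and just under OE replicate 1, and in the second set libraries of the same number were alike across the groups. The log2 change was 0.081 in the second set (95% interval -1.67 to 1.83) and 0.38 in the first (SE 0.15, unadjusted p = 0.0289, adjusted p = 0.519 by edgeR's quasi-likelihood test). Over both sets it was 0.29 (SE 0.30).

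JUND had 83.4 and 75.3 CPM in second-set OE, against 79.0 and 77.3 CPM in second-set EV. In first-set OE it had 109, 93.9 and 98.6 CPM, against 74.9, 103 and 77.5 CPM in first-set EV. The groups overlapped in each set, in the first through EV replicate 2 alone. FOSL2 had 270 and 299 CPM in second-set OE against 265 and 273 CPM in second-set EV, and 276, 264 and 309 CPM in first-set OE against 285, 186 and 278 CPM in first-set EV. EV replicate 2 was the low library for this gene. The log2 changes over both sets were 0.15 for JUND (SE 0.09) and 0.14 for FOSL2 (SE 0.10).

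FOSL1 had 578 and 486 CPM in second-set OE, against 603 and 472 CPM in second-set EV. In first-set OE it had 577, 534 and 558 CPM, against 564, 535 and 558 CPM in first-set EV. The groups overlapped fully, and replicate 4 was low in both groups of the second set. The log2 change over both sets was 0.0010 with a 95% interval of -0.16 to 0.16.

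**Figure D3:**
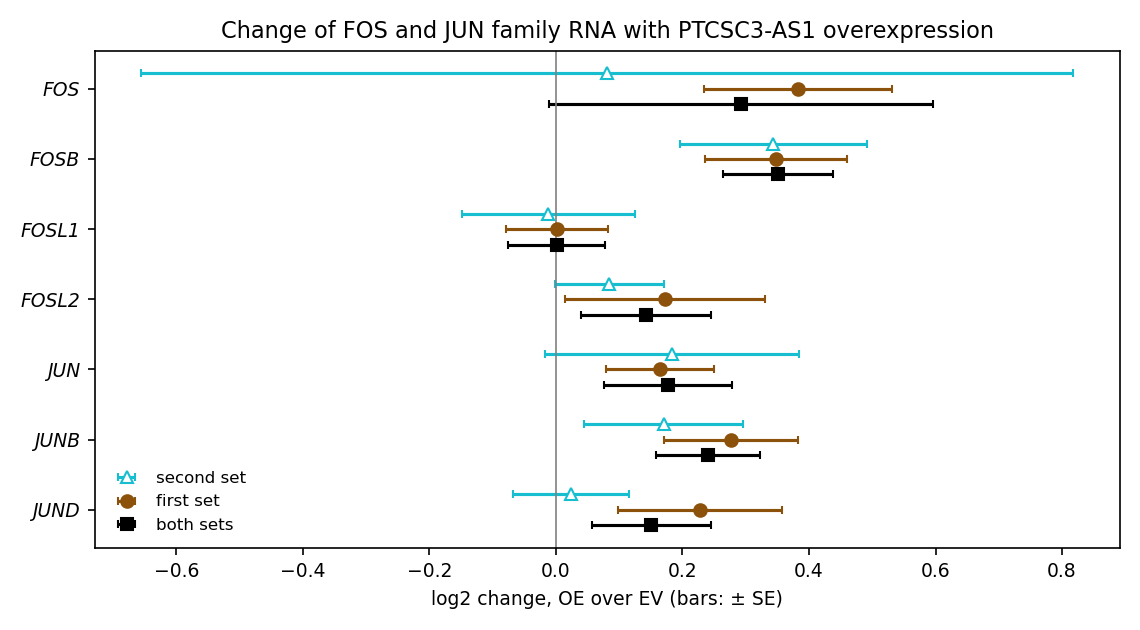
Log2 change of each member in OE over EV, with ± SE bars, for the second set (open triangles), the first set (circles) and both sets (squares). FOSB lies at 0.34 to 0.35 in all 3 fits, FOSL1 lies near 0, and FOS has the widest bar in the second set (SE 0.74).

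In the first set alone, 0 of 7 members passed the test, where 5 of 14340 genes did (background 0.0349%, all lower in OE). DESeq2 called 76 genes there and no member, and 3 members and 1268 genes had an unadjusted p under 0.05 (background 8.84%). FOSB, JUN and JUNB lay higher in OE without overlap (background 9.14%). Without EV replicate 2, 4 of 7 members were higher in OE at an adjusted p under 0.05 by edgeR's quasi-likelihood test (background 6.07% higher and 4.62% lower among 14769 genes). FOS was higher by a log2 change of 0.55 (SE 0.09, adjusted p = 3.53e-04), JUND by 0.39 (SE 0.08, adjusted p = 0.00157), FOSB by 0.38 (SE 0.09, adjusted p = 0.00933) and JUNB by 0.33 (SE 0.09, adjusted p = 0.0189). Leaving out EV replicate 2 removes the EV library that overlapped OE for FOS and JUND. When any other first-set library was left out instead, no member passed. JUN (0.15), FOSL2 (0.0045) and FOSL1 (-0.017) did not pass without EV replicate 2. With it, JUND was at 0.23 (SE 0.13, adjusted p = 0.654) and JUNB at 0.28 (SE 0.11, adjusted p = 0.51) by the same edgeR test. FOSB was then at 0.35 (adjusted p = 0.451 by that test) and FOS at 0.38 (adjusted p = 0.519). JUN (0.16), FOSL2 (0.17) and FOSL1 (0.0016) did not pass with it either.

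The mitochondrial share also separated the groups in each set, and the fibroblast and thyroid marker sums did so in the first set only. The mitochondrial share of counts was 4.24% and 4.10% in second-set OE against 4.81% and 4.45% in second-set EV, and 4.29% to 4.50% in first-set OE against 4.66% to 5.08% in first-set EV. In the first set the 7 fibroblast markers summed to 9.38 to 10.1 CPM in first-set OE and 6.60 to 7.76 CPM in first-set EV, and COL1A2, COL3A1 and DCN had 0 counts in every library. The 7 thyroid markers summed to 473 to 507 CPM in first-set OE and 374 to 425 CPM in first-set EV. In the second set the fibroblast sums overlapped, with 7.45 to 9.44 CPM in OE and 8.24 to 8.42 CPM in EV. The thyroid sums did so too, with 404 to 453 CPM in second-set OE and 408 to 459 CPM in second-set EV. The epithelial sum overlapped in each set. The part of these measures in the members' values was not tested.

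In the second set alone, 0 of 7 members and 0 of 14419 genes passed (background 0%), with 158 genes (background 1.1%) and no member at an unadjusted p under 0.05 and 1 gene by DESeq2. With the replicate number as a block, JUN was the 1 member called (0.20, adjusted p = 0.0275 by edgeR's quasi-likelihood test, background 0.326% higher and 0.166% lower). What libraries of a shared number have in common is not stated. FOSB and JUNB lay higher in OE without overlap (background 12.3%). In the authors' deposited table, the log2 fold change of OE over EV was 0.25 in replicate 5 and 0.45 in replicate 4 for FOSB. For JUNB the authors' deposited table gave 0.27 in replicate 5 and 0.075 in replicate 4, and for FOS 0.085 in replicate 5 and 0.038 in replicate 4. Each of these deposited comparisons set 1 OE library against 1 EV library, so its p-values rest on no replicates and are not given. The OE change of the second set minus that of the first was tested by the interaction term, and 0 of 7 members passed (background 0.00703%, 1 of 14217 genes), nor did any have an unadjusted p under 0.05 (background 3.49%). That difference was -0.31 for FOS (SE 0.68) and between -0.21 and 0.0075 for the others.

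For FOS, FOSB, JUNB and JUN the fitted change was larger between the sets than between OE and EV. For FOSL2 it was smaller, at 0.052 between the sets and 0.14 for OE against EV over both sets. In the second set against the first, 4 of 7 members were lower at an adjusted p under 0.05 by edgeR's quasi-likelihood test with the group as a term (background 9.35% lower among 14532 genes) and none was higher (background 8.83%). What separates the sets (culture, day, run or vector) cannot be told apart here. In bulk RNA, fewer cells with a transcript and less of it per cell cannot be told apart either.

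FOS had 4.12 to 17.1 CPM in the 4 second-set libraries and 59.1 to 103 CPM in the 6 first-set libraries, a log2 change of -2.89 (SE 0.35, adjusted p = 1.57e-04 by edgeR's quasi-likelihood test), or 0.135 times the first-set level. The counts behind the low values were 294 and 71 in second-set OE and 254 and 72 in second-set EV. FOSB had 16.6 to 23.9 CPM in the second set and 40.5 to 62.7 CPM in the first, a log2 change of -1.34 (SE 0.09, adjusted p = 4.68e-06). No second-set library reached any first-set library for either gene.

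JUNB had 29 to 35.4 CPM in the second set and 40.2 to 57.8 CPM in the first, a log2 change of -0.60 (SE 0.08, adjusted p = 4.38e-04 by edgeR's quasi-likelihood test). JUN had 241 to 386 CPM in the second set and 421 to 519 CPM in the first, with a fitted log2 difference of -0.53 (SE 0.11) and an adjusted p of 0.00426. The sets did not overlap for these genes either (background 7.88% of 14217 genes lower in the second set without overlap, and 8.68% higher). HOOK2, which overlaps JUNB, had a log2 change of 0.10 (adjusted p = 0.731).

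The other 3 members did not pass. JUND had 75.3 to 83.4 CPM in the second set and 74.9 to 109 CPM in the first, a log2 change of -0.24 (SE 0.09, adjusted p = 0.0971 by edgeR's quasi-likelihood test). FOSL1 differed by -0.057 (95% interval -0.23 to 0.11) and FOSL2 by 0.052 (95% interval -0.18 to 0.28) on the log2 scale. Among the Fos genes, FOS and FOSB were lower in the second set, while the libraries of FOSL1 and FOSL2 overlapped between the sets.

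The set difference was also read within each group. Among OE libraries alone the log2 changes were -3.04 for FOS, -1.35 for FOSB, -0.65 for JUNB and -0.52 for JUN, all past the threshold, and JUND passed as well at -0.34 (adjusted p = 0.0194 by edgeR's quasi-likelihood test). Among EV libraries alone FOS (-2.73, adjusted p = 0.0483) and FOSB (-1.33, adjusted p = 0.0149) passed by the same edgeR test. JUN kept a value of -0.52 but did not pass (adjusted p = 0.199), and likewise JUNB at -0.53 (adjusted p = 0.122). Without both libraries numbered 4, JUN was at -0.30 (adjusted p = 0.0594) and FOS at -2.20, and without both numbered 5 they were at -0.79 and -4.21.

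Replicates 5 and 4, each 1 OE and 1 EV library, also differed from each other. Their test had the replicate number as a term, and its SEs cannot be set beside those of the other tests. In replicate 5 against replicate 4, FOS and JUN were higher at an adjusted p under 0.05 by edgeR's quasi-likelihood test, 2 of 7 members (background 0.288% higher and 0.499% lower among 14217 genes, 0.788% in all). FOS had 17.1 CPM in OE and 16.2 CPM in EV of replicate 5, against 4.21 CPM in OE and 4.12 CPM in EV of replicate 4, a log2 change of 2.0 (SE 0.16, adjusted p = 2.54e-04), or 3.99-fold. JUN had 386 CPM in OE and 357 CPM in EV of replicate 5, against 293 CPM in OE and 241 CPM in EV of replicate 4, with a fitted log2 difference of 0.48 (SE 0.09) and an adjusted p of 0.0352. When any one of OE 3, EV 3, OE 4, OE 5, EV 4 or EV 5 was left out, the log2 difference for JUN was 0.42 to 0.55 and did not pass (adjusted p = 0.0859 to 0.493).

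FOSL1 was higher in both replicate 5 libraries than in both replicate 4 libraries, with a log2 change of 0.30 (SE 0.09, adjusted p = 0.203 by edgeR's quasi-likelihood test). It passed without OE replicate 2 (adjusted p = 0.0134), without EV replicate 2 (adjusted p = 0.0144) and in a fit of the second set alone (adjusted p = 2.15e-08). FOSB (0.18), JUNB (0.12), JUND (0.088) and FOSL2 (-0.097) did not pass. FOSB was low in both numbers of the second set, and whether its change between them differed from that of FOS was not tested.

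**Figure D4:**
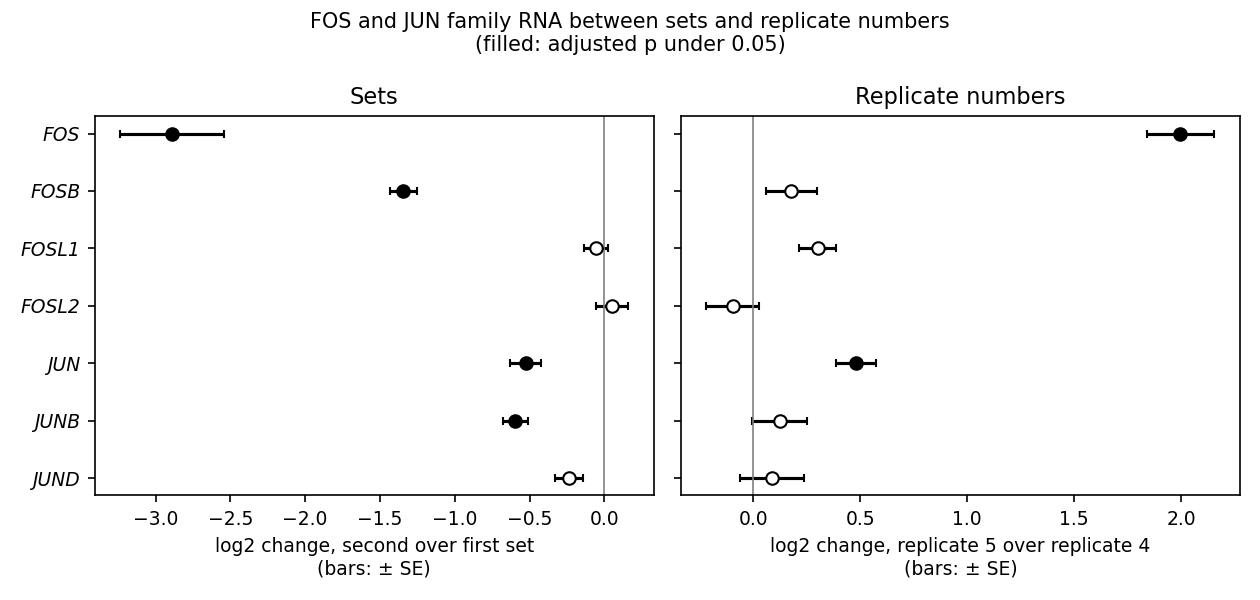
Log2 change of each member with ± SE bars, for the second over the first set (left) and replicate 5 over replicate 4 (right), with filled points for adjusted p under 0.05. FOS lies at -2.89 on the left and 2.0 on the right, and FOSL2 lies near 0 on both sides.

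Among other genes known to be induced at once by growth signals, 12 of 23 tested of 25 listed passed between the sets, 8 lower and 4 higher in the second set, where 18.2% of all genes passed. The list's median log2 change was -0.27, against -0.0062 over all genes. This list and the other lists below were chosen with earlier results of these data known. Their shares beside those of all genes are therefore descriptions and not tests of the lists. EGR1, a zinc finger factor under serum response factor, had 19.9 and 3.32 CPM in second-set OE, 14.7 and 4.41 CPM in second-set EV, 109, 117 and 136 CPM in first-set OE and 103, 98.6 and 111 CPM in first-set EV. Its log2 change between the sets was -3.42 (SE 0.36, adjusted p = 6.52e-05 by edgeR's quasi-likelihood test), and between replicates 5 and 4 it was 2.14 (SE 0.18, adjusted p = 2.54e-04). As for FOS, the second-set libraries lay below all first-set libraries and replicate 4 lay lowest.

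IER2 (-1.02, SE 0.11), the survival regulator IER3 (-0.50, SE 0.11) and IER5 (-0.38, SE 0.08) were also lower in the second set on the log2 scale. DUSP2, a MAPK phosphatase with low RNA (0.913 to 4.01 CPM over the 10 libraries), was higher (1.11, SE 0.25). The YAP-responsive CTGF (0.31) and CYR61 (0.30) and MYC (0.21) were higher as well. With 1 library left out MYC passed in 1 of 10 fits (0.18 to 0.25). The listed immediate-early genes differed between the sets in both directions. For OE against EV over both sets 0 of 22 tested passed. KLF10, a TGF-beta-inducible repressor, was lower in first-set OE (log2 change -0.95, SE 0.10, adjusted p = 0.0198 by edgeR's quasi-likelihood test). Without EV replicate 2 it was at -0.90 (adjusted p = 1.07e-08 by the same edgeR test), and it did not pass when any one of the other 5 libraries was left out (-1.02 to -0.88).

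**Figure D5:**
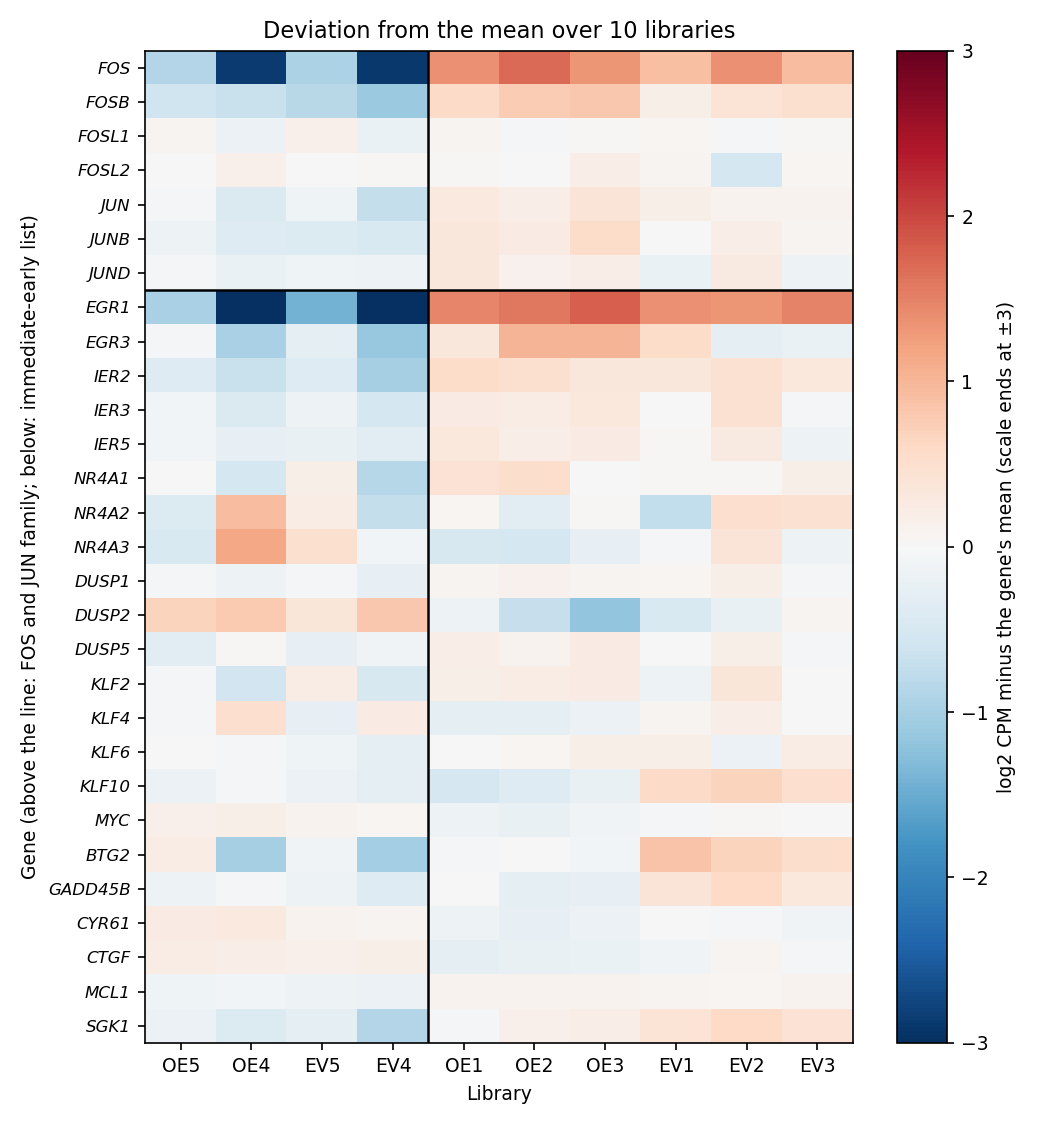
Log2 CPM minus each gene's mean over 10 libraries, with second-set libraries left of first-set libraries, and FOS and JUN members above the line and 22 immediate-early genes below it. FOS and EGR1 are darkest blue in OE 4 and EV 4, where FOS had 4.21 and 4.12 CPM, whereas FOSL1 and FOSL2 are pale in nearly all libraries.

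Of 21 listed dimer partners and related zipper proteins (the ATF, MAF and CREB groups), 17 were tested and 4 passed between the sets, 2 in each direction, where 18.2% of all genes passed (list median -0.15, all genes -0.0062). ATF5, a stress-response factor, had a log2 change of 0.77 (SE 0.07) and MAFK, a small MAF protein, one of 0.37 (SE 0.10), which passed in 6 of 10 fits with 1 library left out (0.33 to 0.43). CREM, a cyclic AMP-responsive factor, had a log2 change of -0.69 (SE 0.08) and ATF2, a JUN partner at cyclic AMP response elements, one of -0.39 (SE 0.09). Between OE and EV over both sets 0 of 17 passed. ATF3, a stress-induced partner, was lower in first-set OE (log2 change -1.49, SE 0.13, adjusted p = 0.0102), and the second-set change exceeded it by 2.03 (SE 0.23, adjusted p = 0.0146 for the interaction by edgeR's quasi-likelihood test). Without EV replicate 2 the first-set change was -1.44 (adjusted p = 2.09e-08) and the difference 1.97 (adjusted p = 0.00408). ATF3 did not pass in the first set without OE 1, OE 2 or EV 1 (changes of -1.53 to -1.42), nor for the interaction without OE 1, OE 2, OE 4, EV 4 or EV 5 (differences of 1.83 to 2.14).

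Of 33 tested kinases and factors upstream of AP-1, 7 passed between the sets, 6 higher and 1 lower in the second set, where 18.2% of all genes passed, and the list median was 0.033. RPS6KA4, which encodes the kinase MSK2, had a log2 change of 0.53 (SE 0.07), MEF2D 0.39 (SE 0.08) and MAP2K2, which encodes MEK2, 0.30 (SE 0.09), with MAP2K2 past the threshold in 4 of 10 fits with 1 library left out (0.25 to 0.37). MAPK13, a p38 kinase, had a change of -0.43 (SE 0.09). SRF, which encodes serum response factor, did not pass (0.12, SE 0.07), and 0 of 33 passed for OE against EV over both sets. Of 16 listed regulators of mRNA decay and Fos or Jun protein turnover, 15 were tested and 2 were lower in the second set, where 9.35% of all genes were lower, and the list median was -0.011. These were ZFP36, which encodes the AU-rich element binding protein tristetraprolin (-0.83, SE 0.12), and USP28, a deubiquitinase (-0.45, SE 0.10).

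Of 41 listed AP-1 target genes, 34 were tested and 17 passed between the sets, 12 lower and 5 higher in the second set, where 9.35% of all genes were lower and 8.83% higher. The list median was -0.25, against -0.0062 over all genes. Like the other lists, this one was chosen with earlier results of these data known, so its excess over all genes is not a test. MMP1, the collagenase whose promoter holds the textbook AP-1 site, had a log2 change of -1.45 (SE 0.19). VEGFA (-0.79, SE 0.11), PLAU, which encodes urokinase (-0.66, SE 0.10), and PHLDA1 (-0.63, SE 0.09) were also lower. The chemokine CCL2 (0.88, SE 0.14), TGFB1 (0.33, SE 0.06), EZR (0.31, SE 0.06) and the cyclin CCND1 (0.30, SE 0.08) were higher. Most of these genes have inputs besides AP-1, and 0 of 32 tested passed for OE against EV over both sets. PLAU was lower in replicate 5 than in replicate 4 (-0.46, SE 0.09, adjusted p = 0.0361 by edgeR's quasi-likelihood test), the direction opposite to that of FOS and JUN, and passed in 2 of 10 fits that left out 1 library (-0.47 to -0.44).

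Likeness was measured as Pearson's r of log2 CPM over the 10 libraries against the 9873 genes with an average log2 CPM of at least 3, a description in which the libraries share the set and group differences. The nearest genes to FOS were HES1, a Notch-pathway repressor (r = 0.994), THBD, which encodes thrombomodulin (0.992), and PHLDA1 (0.992). FOSB was nearest to MCL1 (0.976), JUN to NSDHL, a cholesterol synthesis enzyme (0.986), and JUNB to SOD2, the mitochondrial superoxide dismutase (0.968). FOSL1 was nearest to UNKL (0.936), FOSL2 to the translation factor EIF4G1 (0.983) and JUND to UBTD1 (0.972).

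Among members, FOS followed JUN (r = 0.939) and FOSB (0.931), and FOSB followed JUNB (0.956), over the same 10 libraries. After the group and set means were taken out, FOS and JUN stood at 0.863 and FOSL1 and JUN at 0.965, while FOS and FOSB stood at 0.553. In the first set alone OE 2 and EV 2 were the highest of their groups for FOS and the lowest for JUN, while in the second set replicate 5 lay above replicate 4 for both genes. With the means taken out, FOSL2 and JUND stood at -0.870, with EV replicate 2 lowest for FOSL2 and highest of its group for JUND. For FOSL1, as for JUN, replicate 5 lay above replicate 4 in both groups.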

How the data were processed

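RNA-seq measured 10 TPC-1 libraries, grouped by their labels. The submitters' processing notes name the genome build hg38 and, among their tools, the counter featureCounts (version 1.5.0-p3), the aligner HISAT2 (2.0.5), DESeq2 (1.20.0), CASAVA (1.8) and fastp. Per the file headers, the authors deposited raw read counts per gene and a gene length in 2 tables, and in the second table also a log2 fold change and p-values for OE against EV in replicates 4 and 5 singly. The 14 deposited per-library columns of other units were not used.

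The tables were joined by gene identifier. Tests used edgeR 4.0.16 in R 4.3.3 on all genes passing filterByExpr, with estimated dispersion, the quasi-likelihood F test, TMM scaling and Benjamini-Hochberg adjustment over all genes tested (threshold 0.05). Replicate 5 against 4 came from a fit of all 10 libraries with the replicate number as a term. Each value per kilobase is CPM divided by the deposited gene length, and log2 CPM used a prior count of 2. Scripts were tested on simulated data. Counting limits use 3 counts as the floor. Within OE and within EV no library was a copy of another: counts had a chi-square of 4.30 to 53.1 for each degree of freedom. Libraries of different groups were not compared in this way. The members and the 5 gene lists (136 genes, all matched) were chosen with earlier results of these data known. Named list genes are among those with the lowest p over both sets or in a set, and those past the threshold, limited to 4 per direction. Alternatives were library totals, DESeq2 1.42.0 and its size factors, no filter, a prior count of 0.5, no set term, a replicate block, and leaving out each library.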

Additional observations from a re-analysis of the deposited data

Results flagged for a closer look

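Of 14 groups of 5 libraries (7 members in OE and in EV), 2 held a library far from the other 4. Chance alone gives about 1 in 20 such groups when the 5 values come from a single normal population. Each group here joined both sets, so that rate does not hold for members that differed between the sets, where an outlier can be hidden. FOSL2 stood at 186 CPM in EV replicate 2, against 265 to 285 CPM in the other EV libraries. JUND stood at 103 CPM in EV replicate 2, against 74.9 to 79.0 CPM in the other EV libraries. Both come from the same library, low for FOSL2 and high for JUND, and its part in these values was not tested further.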

How the results depend on the processing

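Of 546 recomputed member changes, 495 kept direction and side of the threshold, 9 lost a call, 9 gained one and 33 reversed, all but 1 of these when 1 library was left out. Without a filter 23 genes were called over both sets, 90 in the first set, 12 in the second, 28 for the interaction and 289 between replicates 5 and 4. By DESeq2 these counts were 6, 76, 1, 9 and 194. For the set comparison, EV libraries alone gave 61 genes and 2 members, and leaving out both libraries numbered 4 or 5 gave 839 or 1726 genes; these fits were chosen after seeing the data. FOSL1 reversed to 0.091 without the libraries numbered 4. The second set alone gave 2074 genes between replicates 5 and 4. Leaving out 1 library gave 0 to 1578 genes and 0 to 4 members in the first set, 0 to 1 genes in the second, 0 to 7 for the interaction, 1316 to 3850 between sets with 4 members each time, and 16 to 424 genes and 1 to 3 members between replicates 5 and 4.

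With the replicate number as a block, 1 gene was called in the first set, 3 for the interaction and 71 in the second set, where JUN became the 1 member called (0.20, adjusted p = 0.0275 by edgeR). The block took the SE of FOS to 0.083, against 0.30 without it, over both sets, and to 0.18, against 0.74, in the second set. Over both sets no gene passed with it, and 4 members, against 2 without it, had an unadjusted p under 0.05. Same-number libraries correlated in their deviations at -0.11, 0.0035 and 0.16 for numbers 1 to 3 and at 0.31 for 4 and 5, a single value since the deviations of 2 libraries mirror each other. With nothing stated on what a pair shares and not every correlation over 0.1, the numbers were not taken as pairs in the main tests of OE against EV.

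Reversed log2 changes with 1 library left out ranged as follows. FOSL1 ranged from -0.055 to 0.056 over both sets, -0.023 to 0.035 in the first set, -0.18 to 0.17 in the second, -0.18 to 0.18 for the interaction and -0.13 to 0.0076 between sets. In the second set FOS ranged from -1.26 to 1.37, JUN from -0.074 to 0.49 and JUND from -0.053 to 0.094. For the interaction FOS ranged from -1.64 to 0.996, FOSB from -0.14 to 0.15, JUN from -0.24 to 0.33 and FOSL2 from -0.19 to 0.068. FOSL2 ranged from -0.023 to 0.097 between sets and JUND from -0.019 to 0.21 between replicates 5 and 4. The causes were not tested.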
